A study of Mus musculus with 12 samples.

Results

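Caspases are proteases that dismantle a dying cell, and they are started in 2 ways. In the extrinsic way, receptors of the TNF receptor family recruit Casp8 when a ligand binds them. In the intrinsic way, cytochrome c released from mitochondria assembles the apoptosome around Casp9, and both ways end in executioner caspases. In the cochlea, apoptosis of hair cells and spiral ganglion neurons is a known route of hearing loss after noise, ototoxic drugs and ageing, and Dusp1, the phosphatase named on the genotype labels, switches off the stress kinases JNK and p38 that act upstream of cell death.

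The 8 genes described here are Casp2, Casp6, Casp8, Casp9, Fas, Tnfrsf10b, Ripk1 and Birc3, taken by symbol from the 23951 genes of the series' expression table. All 8 were found, and all 8 were among the 16275 genes that passed the filter on low values. RNA of whole mouse cochleae on a mixed 129S2/SvPas:C57BL/6 background was sequenced in 12 libraries, 3 in each of 4 groups. WT (Dusp1+/+, called wild type on the labels) at 5 months were E1, E3 and E4, KO (labelled Dusp1-/-) at 5 months were E7, F18 and F19, WT at 8 months were F1, F10 and F12, and KO at 8 months were F5, F6 and F27. The codes are those given on the labels, and no source used here says what the letters mean. The study used males and females together, but by the Xist level given below they were not spread evenly over the groups. The genotype is that of the whole animal and not of 1 cell type, and the comparison asks how the death machinery differs between the labelled genotypes at each age.

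Levels are FPKM, fragments per transcript length and library depth, which allow levels of different genes to be compared. The files hold no read numbers, so depth is unknown. The check of the knocked-out gene went against the labels. Dusp1 was at 60.8, 47.6 and 29.5 FPKM in WT at 5 months and at 61.9, 81.5 and 75.3 FPKM in the libraries labelled KO, and at 43.0, 38.3 and 38.6 against 55.6, 73.7 and 57.1 FPKM at 8 months. No source used here gives the exons that the allele lacks, so this level over the whole gene cannot tell whether a functional transcript was left, and KO below means a library labelled KO. Xist, an RNA of female cells, was at 0.0392, 0.0597 and 52.4 FPKM in WT at 5 months. In KO of that age it was at 0.0562, 0.0210 and 0.0726 FPKM. At 8 months it was at 49.4, 0.0338 and 0.0935 FPKM in WT and at 0.0550, 34.9 and 47.6 FPKM in KO. By this level no KO library of 5 months was female, while the other groups were mixed. Sex entered only as the Xist level, a covariate in an alternative fit. The tissue label held: the fibrocyte gene Coch ranged from 1888 to 2983 FPKM and the hair cell gene Otof from 5.88 to 14.4 FPKM. Of 10 hair cell markers only Atoh1, a gene of hair cell development, was under the filter, at 0.0491 to 0.387 FPKM. Blood and marrow genes differed between libraries: the summed level of 16 neutrophil markers was 97.6 to 705 FPKM in WT and 4184 to 23057 FPKM in KO at 5 months, highest in E7, and 717 to 4670 FPKM in WT and 919 to 16891 FPKM in KO at 8 months, highest in F5. In bulk tissue, a change in the number of cells of a type and a change of RNA per cell cannot be told apart.

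In the mm9 annotation deposited with the data, the 4 caspases lie on different chromosomes: Casp2 at chr6:42215038-42232495, Casp6 at chr3:129604343-129617020, Casp8 at chr1:58852218-58904347 and Casp9 at chr4:141349527-141371893. The receptor Fas lies at chr19:34365149-34402260 with 2 transcripts of 3 and 9 exons, and Tnfrsf10b lies at chr14:70167279-70184218 with 1 transcript of 8 exons. Ripk1 lies at chr13:34094743-34127039 and Birc3, alone of the 8 on the reverse strand, at chr9:7848701-7873170. Casp9 shares 93 exonic bases with Cela2a on the other strand. The libraries were stranded, but no source used here says whether the counting used strand. None of the 8 is on chromosome 17, where Dusp1 lies.

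Promoters are shown for Fas, which holds an AP-1 match, for Casp8 and Birc3, which share the lowest content of G and C, and for Casp9, which has the highest of those genes with a single entry. They are the 250 bases before the start in the RefSeq table of GRCm38.p6, which held 7 of the 8 genes (Tnfrsf10b had no entry), 5′ to 3′ on the gene's strand. Capitals mark a match on either strand to the AP-1 site TGANTCA or to the GC box GGGCGG, which do not overlap here.
Fas, chr19:34290409-34290658, forward strand: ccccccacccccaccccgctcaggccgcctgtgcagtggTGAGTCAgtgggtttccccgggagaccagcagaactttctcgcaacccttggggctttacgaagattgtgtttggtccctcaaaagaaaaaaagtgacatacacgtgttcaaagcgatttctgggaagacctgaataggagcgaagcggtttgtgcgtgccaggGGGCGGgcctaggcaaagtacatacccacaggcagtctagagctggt
Casp8, chr1:58802252-58802501, forward strand: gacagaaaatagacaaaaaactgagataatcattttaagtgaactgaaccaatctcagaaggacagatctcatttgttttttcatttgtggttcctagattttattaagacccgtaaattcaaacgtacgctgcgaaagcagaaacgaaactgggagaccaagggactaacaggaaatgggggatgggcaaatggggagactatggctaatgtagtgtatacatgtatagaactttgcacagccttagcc
Birc3, chr9:7873171-7873420, reverse strand: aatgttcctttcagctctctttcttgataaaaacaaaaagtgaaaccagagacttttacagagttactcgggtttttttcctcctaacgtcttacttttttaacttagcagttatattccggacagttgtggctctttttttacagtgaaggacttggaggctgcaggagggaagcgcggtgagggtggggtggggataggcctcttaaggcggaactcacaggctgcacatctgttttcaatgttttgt
Casp9, chr4:141793362-141793611, forward strand: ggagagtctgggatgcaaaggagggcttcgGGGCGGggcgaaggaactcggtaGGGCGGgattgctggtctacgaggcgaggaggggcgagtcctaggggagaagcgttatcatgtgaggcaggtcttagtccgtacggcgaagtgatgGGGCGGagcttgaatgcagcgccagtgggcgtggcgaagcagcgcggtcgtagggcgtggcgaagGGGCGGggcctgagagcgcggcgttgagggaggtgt

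The Fas stretch holds TGAGTCA, the letters bound by the JNK target AP-1, beginning 211 bases before the start, and 1 GC box. An AP-1 match is in 6.75% of the 32851 promoters of this table, and none of the other 6 genes has one. Casp9 has 4 GC boxes and Casp8 and Birc3 have none, while the 2 entries of Ripk1, not shown, have 2 and 4, where 32.7% of all promoters hold at least 1. The Casp8 and Birc3 stretches are 39.6% and 43.6% G and C, that of Fas 56.4% and that of Casp9 66.0%, beside a median of 52.4% over all promoters. The TATA letters TATAAA, in 12.4% of all promoters, were found in these windows of none of the 7 genes. A match is a run of letters and was not tested as a binding site.

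All 8 genes were expressed in every library, in the middle of the range of tested genes. Casp9, Casp6 and Casp2 had the highest levels, between 8.76 and 14.2 FPKM over the 12 libraries, and Casp8, Tnfrsf10b, Ripk1, Fas and Birc3 lay between 4.75 and 10.1 FPKM. The mean of Casp9 exceeded that of 54.8% of tested genes and the mean of Fas that of 36.5%. In WT at 5 months the order was Casp9 (12.5 FPKM ± 0.0844 (SD, n = 3)), Casp6 (11.01 ± 0.934), Casp2 (10.4 ± 0.329), Ripk1 (7.04 ± 0.567), Tnfrsf10b (6.48 ± 0.239), Casp8 (6.21 ± 0.228), Birc3 (5.43 ± 0.0284) and Fas (5.21 ± 0.409). Of neighbours in this order, Casp9 and Casp6, Casp2 and Ripk1, and Casp8 and Birc3 did not overlap in their 3 libraries, and the other neighbours did. In KO at 5 months the only neighbours apart were Casp2 (11.5 ± 2.08) and Ripk1 (8.52 ± 0.396). At 8 months Casp2 and Tnfrsf10b were apart in both genotypes, and Casp6 and Casp2 in WT. The caspases other than Casp8 thus kept above the other 5 genes in every group mean.

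**Figure D1:**
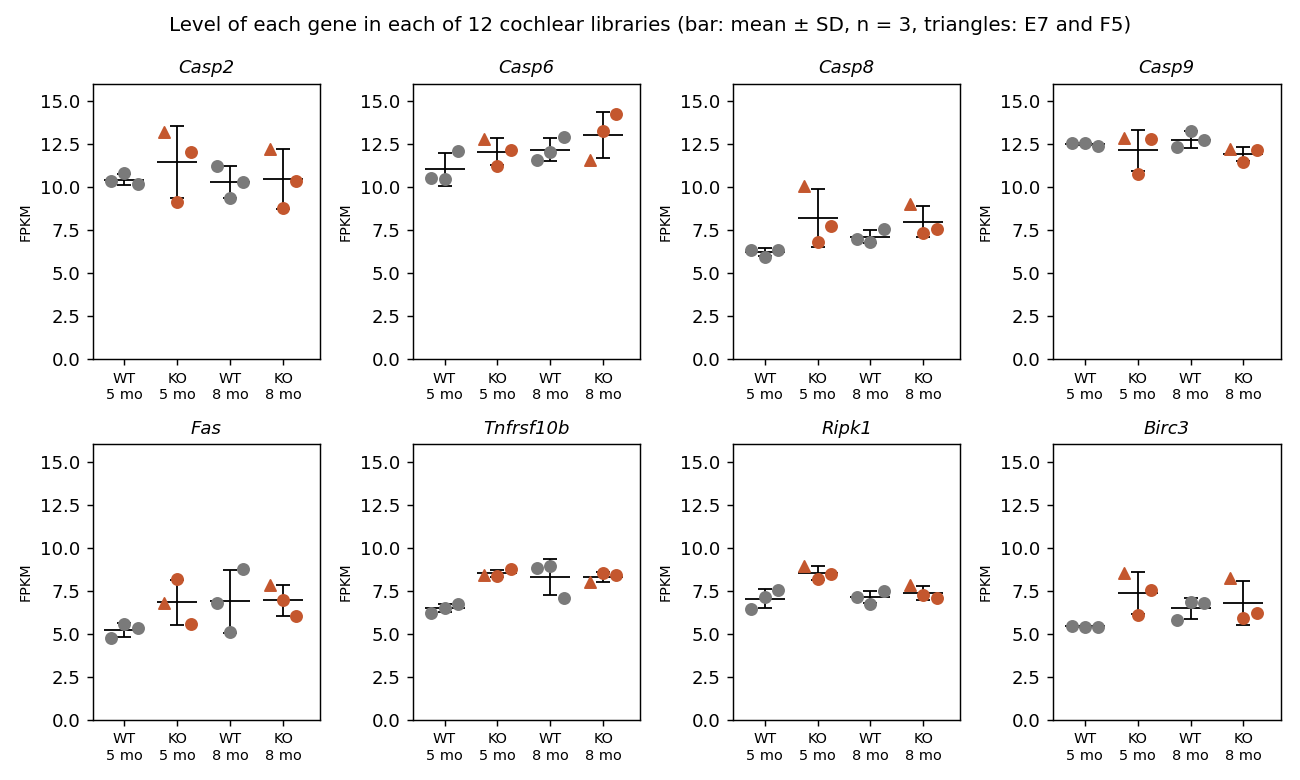
FPKM (vertical axis, linear from 0) of the 8 genes in the 12 libraries, grouped by genotype and age. Points are single libraries, grey for WT and orange for KO, triangles mark E7 and F5, and the bars are the mean and SD of 3 libraries. Tnfrsf10b at 5 months lies at 6.23 to 6.70 in WT and at 8.37 to 8.75 in KO, while Casp9 stays between 10.7 and 13.2 in all 12.

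At 5 months the receptors, the initiator Casp8, the kinase Ripk1 and the inhibitor Birc3 lay 21.1 to 35.8% higher in the mean of the libraries labelled KO than in WT, and Casp2, Casp6 and Casp9 differed by 9.86% or less. None of the 8 passed the test over all genes (limma on log2(FPKM + 0.5), adjusted p under 0.05), which called 11 of 16275 genes in either direction, or 0.0676%. Before adjustment, p was under 0.05 for 4 of the 8, all with the higher level in KO (Tnfrsf10b, Ripk1, Birc3 and Casp8). Of all genes, 8.23% passed that mark upwards and 9.92% downwards. In 5 of the 8, these and Fas, every KO library exceeded every WT library, as did 11.3% of all genes tested, and 13.8% were lower without overlap. The median change of the 8 was 0.30 on the log2 scale and that of all tested genes -0.03.

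Tnfrsf10b encodes the only mouse death receptor for the ligand TRAIL. Its level was 6.23, 6.51 and 6.70 FPKM in WT and 8.44, 8.37 and 8.75 FPKM in KO at 5 months. The 2 groups stood apart by more than the range within either. The log2 change was 0.37 ± 0.09 (SE), with a 95% interval of 0.18 to 0.56, an unadjusted limma p of 0.00153 and an adjusted p of 0.147. Fas encodes the receptor of Fas ligand and recruits Casp8 through the adaptor Fadd. It was at 4.75, 5.54 and 5.33 FPKM in WT and at 6.76, 8.17 and 5.55 FPKM in KO, so that F19 lay only just above the highest WT library. Its change was 0.35 ± 0.19, with an interval of -0.07 to 0.76 and an adjusted limma p of 0.35.

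Casp8 encodes the initiator caspase that the death receptors activate. It was at 6.34, 5.95 and 6.34 FPKM in WT and at 10.1, 6.77 and 7.71 FPKM in KO at 5 months. E7 was the highest of all 12 libraries and F18 the lowest of the 3 KO libraries, close to WT. The change was 0.36 ± 0.13, with an interval of 0.07 to 0.64, a limma p of 0.0202 and an adjusted p of 0.221. Ripk1 encodes the kinase on which a TNF receptor signal is turned to survival, apoptosis or necroptosis. Its levels of 6.43, 7.13 and 7.56 FPKM in WT and 8.95, 8.17 and 8.45 FPKM in KO put the 3 KO libraries of 5 months above all other 9. The change was 0.26 ± 0.08, with an interval of 0.09 to 0.43, a limma p of 0.00679 and an adjusted p of 0.189. Birc3 encodes cIAP2, a ubiquitin ligase that acts on Ripk1 and is a target of NF-kB. It was at 5.46, 5.41 and 5.42 FPKM in WT, within a narrow range, and at 8.50, 6.11 and 7.52 FPKM in KO. The change was 0.40 ± 0.14, the largest of the 8, with an interval of 0.09 to 0.71, a limma p of 0.0171 and an adjusted p of 0.215.

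Casp9 encodes the initiator of the intrinsic way, Casp2 a caspase activated by the Pidd1 complex, and Casp6 an executioner that cuts lamins. Casp9 was at 12.5, 12.5 and 12.4 FPKM in WT and at 12.9, 10.7 and 12.8 FPKM in KO, and only F18 lay below WT. Its change was -0.05 ± 0.07, with an interval of -0.21 to 0.12. Casp2 was at 10.3, 10.8 and 10.2 FPKM in WT and at 13.2, 9.15 and 12.05 FPKM in KO, on both sides of WT, with a change of 0.11 ± 0.14 and an interval of -0.20 to 0.43. Casp6 was at 10.5, 10.4 and 12.1 FPKM in WT and at 12.8, 11.2 and 12.1 FPKM in KO, with overlap and a change of 0.13 ± 0.09 (interval -0.08 to 0.33). The adjusted limma p of these 3 was 0.772, 0.704 and 0.495.

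The neutrophil markers, genes of myeloid cells, were read beside the 8 genes, and where their RNA came from was not tested. At 5 months all 16 of these markers were higher in KO at an unadjusted p under 0.05, with a median log2 change of 4.16 and none called, and so were 11 of 12 B cell markers (median 2.04), 6 of 7 red cell markers (median 1.81), 4 of 9 T and NK cell markers (median 0.45) and 2 of 12 macrophage markers (median 0.24). At that mark and age, 8.23% of all genes were higher and 9.92% lower. The summed level of each of these marker lists was highest in E7 among the 3 KO libraries of that age. E7 and F5 had the highest neutrophil level of their groups, and they were also the libraries highest in their groups for Casp8, Birc3, Casp2, Ripk1 and Casp9. With the neutrophil level as a covariate of the fit, the change at 5 months was 0.04 ± 0.15 for Casp8, 0.02 ± 0.15 for Birc3, 0.09 ± 0.28 for Fas, 0.17 ± 0.12 for Ripk1 and -0.25 ± 0.16 for Casp2, and that of Tnfrsf10b was 0.53 ± 0.12. Of the 8, Tnfrsf10b alone kept an unadjusted limma p under 0.05 in that fit, of 0.00131 (adjusted p = 0.416). Without E7, Tnfrsf10b (0.38 ± 0.10, unadjusted limma p of 0.0048) and Ripk1 (0.23 ± 0.09, p of 0.0292) were under an unadjusted 0.05 and Casp8 (0.20 ± 0.10) and Birc3 (0.29 ± 0.15) were not, and without E7 and F5 all 4 were. The part of the neutrophil RNA in these changes was not tested beyond these fits, and the neutrophil levels of the genotypes at 5 months do not overlap.

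**Figure D2:**
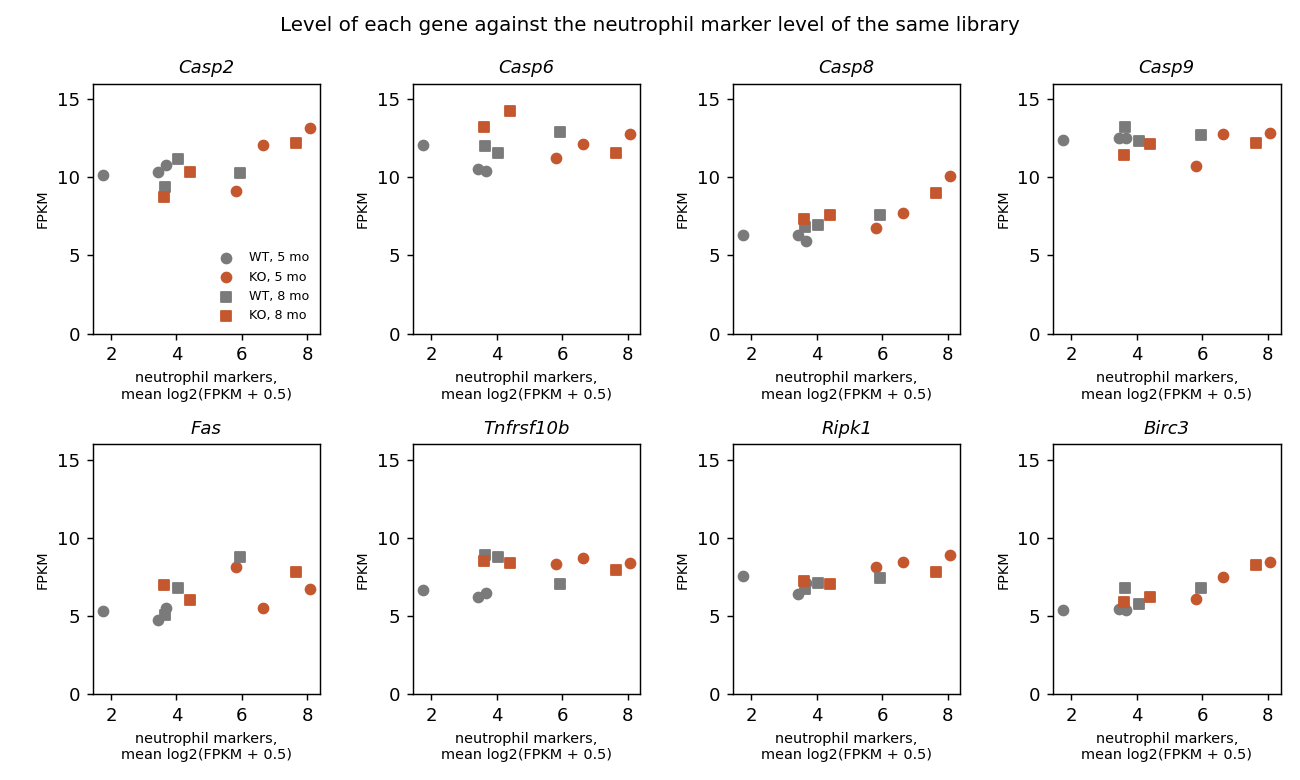
FPKM of each gene (vertical axis, linear from 0) against the mean log2(FPKM + 0.5) of 16 neutrophil markers in the same library (horizontal axis). Circles are 5 months and squares 8 months, grey WT and orange KO. Casp8 and Birc3 are highest at the right, in E7 and F5, and Tnfrsf10b is lowest in the 3 WT libraries of 5 months and level elsewhere but for F12, at 7.07.

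**Figure D3:**
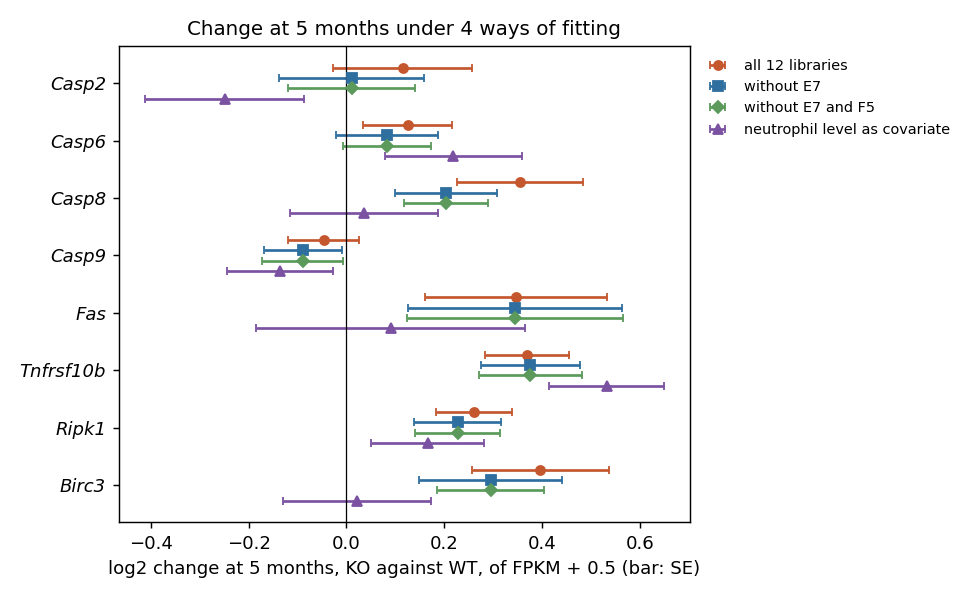
Log2 change at 5 months, KO against WT, of each gene (horizontal axis, points with SE) from all 12 libraries, without E7, without E7 and F5, and with the neutrophil level as a covariate. Tnfrsf10b stays between 0.37 and 0.53, and Casp8 goes from 0.36 to 0.04.

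At 8 months the genotypes were close for all 8 genes. The log2 changes ran from -0.09 (Casp9) to 0.15 (Casp8), with a median of 0.04 beside -0.00402 for all tested genes. The limma test called none of the 8 and 2 genes of the whole table (0.0123%), and 0 of the 8 had an unadjusted p under 0.05, where 2.21% of all genes were higher and 2.97% lower. Casp9 was the only 1 of the 8 whose libraries did not overlap. It was at 12.3, 13.2 and 12.7 FPKM in WT and at 12.2, 11.4 and 12.1 FPKM in KO, lower in each KO library by at least a small margin, as in 6.19% of all genes (4.1% were higher without overlap), with a change of -0.09 ± 0.07 and an adjusted limma p of 0.973.

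The death receptors overlapped at this age. Tnfrsf10b was at 8.81, 8.94 and 7.07 FPKM in WT and at 7.98, 8.53 and 8.39 FPKM in KO, and Fas was at 6.78, 5.10 and 8.76 FPKM in WT and at 7.83, 6.99 and 6.02 FPKM in KO. In both, the WT libraries spread more widely than the KO libraries. The change was 0.01 ± 0.09 for Tnfrsf10b (interval -0.18 to 0.20) and 0.04 ± 0.19 for Fas (interval -0.38 to 0.45). For Casp8, the 3 WT libraries were at 6.97, 6.81 and 7.56 FPKM and the KO libraries at 9.01, 7.33 and 7.58 FPKM, and for Birc3 the levels were 5.78, 6.83 and 6.80 FPKM against 8.27, 5.90 and 6.23 FPKM. F5 was the highest in both genes, and the changes were 0.15 ± 0.13 and 0.06 ± 0.14. Ripk1 was at 7.13, 6.75 and 7.46 FPKM in WT and at 7.82, 7.23 and 7.07 FPKM in KO, a change of 0.05 ± 0.08. Casp2 and Casp6 changed by 0.01 ± 0.14 and 0.09 ± 0.09, and F27, with 14.2 FPKM, was the highest of all libraries for Casp6.

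**Figure D4:**
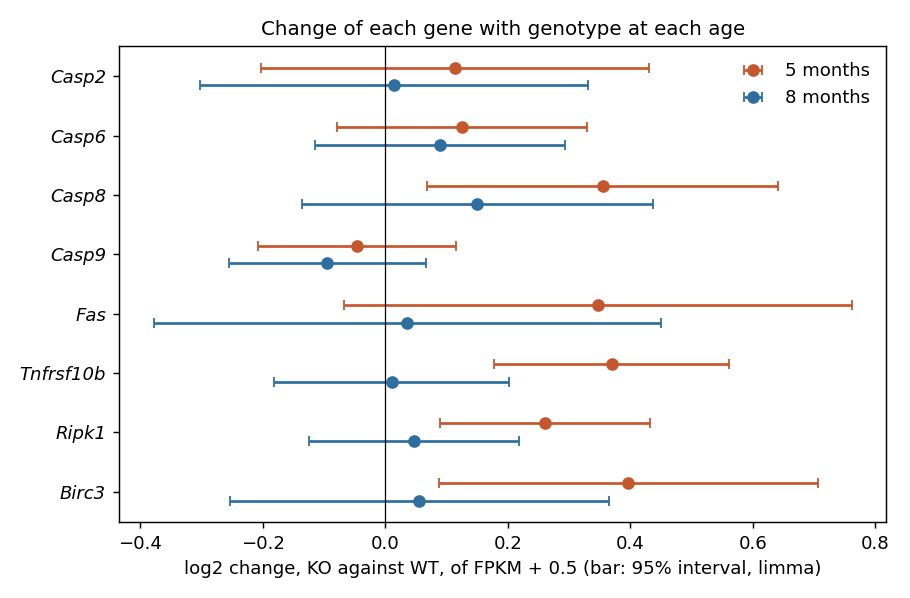
Log2 change of FPKM + 0.5, KO against WT (horizontal axis), of each gene at 5 months (orange) and 8 months (blue), with 95% intervals from limma. The intervals of Casp8, Tnfrsf10b, Ripk1 and Birc3 lie above 0 at 5 months, before any adjustment over genes, and every interval covers 0 at 8 months.

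The difference between the genotype changes of the 2 ages was below 0 for each of the 8 genes, from -0.36 to -0.04 on the log2 scale. Tnfrsf10b had the largest, -0.36 ± 0.12 with an interval of -0.63 to -0.09 and a limma p of 0.0145, but an adjusted p of 0.876, as all genes but 1 (0.00614%) missed the threshold. It was the only 1 of the 8 at an unadjusted p under 0.05, where 1.66% of all genes were below 0 and 3.02% above 0 at that p. The intervals of the other 7 covered 0, and after adjustment a difference between ages was not shown for any of the 8.

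From 5 to 8 months in WT, Tnfrsf10b changed by 0.32 ± 0.09 (unadjusted limma p of 0.00368, adjusted p = 0.63), Fas by 0.34 ± 0.19, Birc3 by 0.23 ± 0.14 and Casp8 by 0.18 ± 0.13. For Tnfrsf10b, Birc3 and Casp8 all WT libraries of 8 months exceeded all of 5 months, as in 10.4% of tested genes. None was called (0.0123% of all genes were), and 1 of the 8, Tnfrsf10b, was at an unadjusted p under 0.05, beside 3.55% of all genes lower and 4.29% higher. Within the libraries labelled KO, Ripk1 was at 8.95, 8.17 and 8.45 FPKM at 5 months and at 7.82, 7.23 and 7.07 FPKM at 8 months, lower in every library. Its change was -0.20 ± 0.08, with a limma p of 0.0283 and an adjusted p of 0.359, and it was lower without overlap as 4.58% of all genes were. At that unadjusted mark 3.75% of all genes were lower and 8.84% higher. No gene of the table was called in this contrast (0%), and the other 7 genes changed by -0.12 to 0.10. The contrasts share libraries: WT at 5 months enters both the genotype change at that age and the age change in WT.

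Averaged over both ages, Casp8 (0.25 ± 0.09), Birc3 (0.23 ± 0.10), Tnfrsf10b (0.19 ± 0.06) and Ripk1 (0.15 ± 0.05) were higher in KO at an unadjusted limma p under 0.05, as were 7.75% of all genes, while 9.66% were lower. Their adjusted p were 0.235, 0.275, 0.214 and 0.232, and none was called, beside 13 genes of the table (0.0799%). Without E7 and F5 only 1 of the 8 stayed under an unadjusted 0.05.

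Casp8 and Birc3 had the most similar pattern within the set, with a Pearson r of 0.91 of log2(FPKM + 0.5) over the 12 libraries, followed by Casp8 and Ripk1 (0.66) and Ripk1 and Birc3 (0.66). Over all 28 pairs, r ran from -0.49 (Casp9 and Fas) to 0.91, with a median of 0.37. The 12 libraries share genotype, age and the neutrophil level, so these are descriptions. In the whole table, the genes nearest in pattern to Casp8 were Actb, Tpm3 and Sp110 (r of 0.98, 0.98 and 0.97), and to Birc3 Cdca7l, Ebi3 and Nuak2 (0.96, 0.96 and 0.96). Those nearest to Ripk1 were the cytokine gene Il1a, Snap23 and Rhbdf2 (0.93, 0.92 and 0.91), to Fas Tmem106a, Tmem14c and Orm1 (0.92, 0.91 and 0.91), and to Tnfrsf10b Ccdc64b, 1500012F01Rik and Mir8116 (0.88, 0.87 and 0.87). For Casp2 they were Hiatl1, Agps and Galnt4 (0.95, 0.95 and 0.93), for Casp6 Gpatch4, Usf2 and the interferon-induced Oas1b (0.95, 0.92 and 0.91), and for Casp9 Gm11149, Parp4 and Tbc1d5 (0.90, 0.90 and 0.89). None of these 24 genes is another of the 8.

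The rest of the death machinery was described by 8 lists, with 71 of 78 other genes tested. At 5 months none was called, and 20 had an unadjusted p under 0.05, 16 of them upwards and 4 downwards, with a median change of 0.14. Of all genes, 8.23% passed that mark upwards and 9.92% downwards. At 8 months 1 went upwards and 2 downwards, with a median of 0.03, beside 2.21% and 2.97% of all genes. The same shares stand beside the counts of the single lists below. For genes said below not to overlap, the shares of all genes were 11.3% higher and 13.8% lower at 5 months. At 8 months they were 4.1% and 6.19%. Of the 7 ligand genes 4 passed the filter, and Fasl, the ligand of Fas, was under it. Ltb, a lymphotoxin of lymphocytes, was at 1.14, 1.92 and 1.51 FPKM in WT and at 9.86, 3.38 and 4.52 FPKM in KO at 5 months (1.55 ± 0.47, limma, adjusted p = 0.191) and changed by -0.11 at 8 months. Tnf, which like Ltb lies 8.69 Mb from Dusp1 on chromosome 17, changed by 0.61 ± 0.31 and, at 8 months, by 0.27 ± 0.31. Tnfsf10, the ligand of Tnfrsf10b, changed by -0.04 at 5 months, and Tnfsf12 by 0.06 ± 0.07 at 8 months.

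Of the 11 other death and decoy receptors, 9 lay above 0 at 5 months, 1 of them at an unadjusted p under 0.05. This was Tnfrsf1a, the main TNF receptor, at 37.8, 38.8 and 41.8 FPKM in WT and at 50.6, 48.8 and 45.2 FPKM in KO (0.29 ± 0.09, limma, adjusted p = 0.198). It was several times more abundant than Fas and Tnfrsf10b on this per-length scale. At 8 months it changed by 0.15 ± 0.09. Tnfrsf12a, the receptor of Tnfsf12 and 2.83 Mb from Dusp1, changed by 0.43 ± 0.23 at 5 months, and Tnfrsf1b by 0.40 ± 0.26 at 8 months. Among 17 adaptors and regulators, 3 were higher (Pidd1, Tradd and Tnfaip3) and 2 lower at 5 months at that p. Map3k7, the kinase TAK1 that carries the receptor signal to NF-kB and JNK, was lower without overlap at both ages, by -0.25 ± 0.07 and -0.29 ± 0.07 (limma, adjusted p = 0.188 and adjusted p = 0.748), from 19.7, 21.9 and 19.7 FPKM in WT to 16.9, 16.5 and 17.8 FPKM in KO at 5 months and from 19.2, 18.2 and 18.6 to 16.2, 13.6 and 15.8 FPKM at 8 months. Faim2, a neuronal inhibitor of Fas signalling, was also lower without overlap at both ages, by -0.41 ± 0.11 and -0.24 ± 0.11. Such lower levels without overlap were found in 13.8% of all genes at 5 months and in 6.19% at 8 months. At 5 months 4 of 12 neuron markers were lower at an unadjusted p under 0.05, with a median change of -0.22, and the part of the neurons in the level of Faim2 was not tested.

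In the list of other caspases, Casp12, a caspase of the endoplasmic reticulum, was lower at 5 months without overlap (-0.30 ± 0.12, limma, adjusted p = 0.239), at an unadjusted p under 0.05, and it changed by -0.03 at 8 months. At 8 months Casp4 changed by 0.34 ± 0.21 and Cflar, the inhibitor that competes with Casp8, by -0.06 ± 0.09. Of the 6 apoptosome and mitochondrial genes 0 passed an unadjusted 0.05. Apaf1, the scaffold on which Casp9 is activated, was at 2.39, 2.46 and 2.23 FPKM in WT and at 6.17, 2.88 and 3.93 FPKM in KO (0.70 ± 0.31), with no overlap, and Htra2 changed by 0.20 ± 0.11. Endog and Diablo changed by 0.09 ± 0.14 each at 8 months.

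Of the 9 inhibitor genes tested 3 were higher at 5 months at an unadjusted p under 0.05, and these do not all inhibit caspases. Xaf1, which antagonises Xiap and is induced by interferon, changed by 1.73 ± 0.33 (limma, adjusted p = 0.118), from 12.5, 5.27 and 6.09 FPKM to 24.8, 22.2 and 30.8 FPKM, and by 0.23 at 8 months. Birc5, survivin, a protein of dividing cells, changed by 2.49 ± 0.86 (adjusted p = 0.21), and its highest libraries were E7 at 27.1 and F5 at 26.6 FPKM. Naip2, the third, senses bacterial proteins. Xiap, the inhibitor of Casp9, and Birc6 changed by -0.16 ± 0.11 and -0.08 ± 0.10 at 8 months. Birc2, the close paralog of Birc3 that encodes cIAP1, changed by -0.05 at 5 months.

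Of 9 necroptosis and pyroptosis genes an unadjusted p under 0.05 at 5 months was reached by 4 with the higher and 1 with the lower level in KO. Il1b, a cytokine of myeloid cells, changed by 1.31 ± 0.37 and Il18 by -0.32 ± 0.11 (limma, adjusted p = 0.179 and adjusted p = 0.207), and the necroptosis genes Ripk3 and Mlkl by 0.89 and 0.56. At 8 months Zbp1, an interferon-induced sensor that engages Ripk3, was higher without overlap (0.64 ± 0.28, adjusted p = 0.962), and Mlkl changed by 0.36 ± 0.24. At that age 12 of 16 interferon-induced genes were higher at an unadjusted p under 0.05, with a median of 0.75. Of 10 caspase substrates 3 were higher at 5 months at that p: Lmnb1 (1.25 ± 0.49), Lmna, a substrate of Casp6 (0.20 ± 0.09), and Dffb. At 8 months Dffa, the inhibitor of the Dffb nuclease, changed by -0.22 ± 0.09 with overlapping groups, and Lmna by 0.16 ± 0.09.

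**Figure D5:**
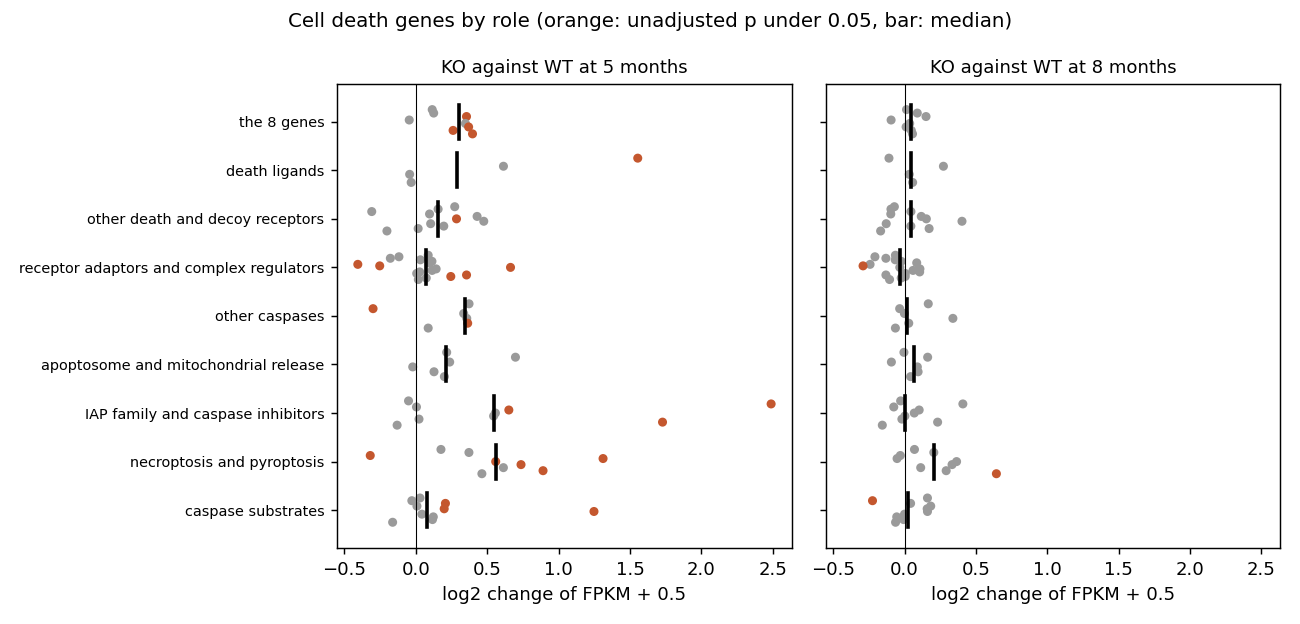
Log2 change of FPKM + 0.5, KO against WT (horizontal axis), of each gene in 8 lists of the cell death machinery and of the 8 genes described, at 5 months (left) and 8 months (right). Orange points have an unadjusted p under 0.05, none is called after adjustment, and black bars are medians. The median of the 8 genes is 0.30 at 5 months and 0.04 at 8 months.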

How the data were processed

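The authors made stranded polyA libraries from whole cochleae and, per the labels, processed reads with FastQC 0.10.1, TopHat2 2.0.10, Bowtie 1.0.0, SAMtools 0.1.19 and Cufflinks 2.2.1 on mm9. The deposited values are FPKM for each gene in each library, and many had lost their decimal points. The points were put back from the authors' group FPKM, deposited in the Cuffdiff tables under other column names: for each gene and group the only placing whose mean equals it within 2e-05 was taken. This changed 55.32% of values and left out 8 of 23951 genes, none described here (23943 kept). Library sums of FPKM ran from 500384 to 583073. The fold changes, p-values and enrichment scores of the authors were not used.

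The 16275 genes averaging 0.5 FPKM or more entered as log2(FPKM + 0.5) into 1 limma 3.58.1 fit (R 4.3.3) over the 4 groups, with trended variances. From it, 6 contrasts were taken with Benjamini-Hochberg adjustment over all genes and a threshold of 0.05. A fold on this scale understates the change of low genes. No source used here says that each code marks a separate animal. By the Xist level, every group but KO at 5 months held both sexes, so its libraries cannot all come from 1 animal. Beyond that, how many animals each group holds is not known. The p-values measure only the spread between these samples, part of which may be technical. The 8 genes, the lists and the tests were chosen with earlier results of these data known. Named were all 8 genes, Dusp1, the 2 genes of each list with the smallest p at each age, and the 3 genes nearest in pattern; Fasl, Tnfsf10, Pidd1, Tradd, Tnfaip3, Naip2, Birc2, Ripk3, Dffb and the tissue markers were added after their values were seen. Some genes of the lists are counted but not reported here by name. The scripts were tested on simulated data. Tables and figures were made in Python 3.11.15 with pandas 2.3.3 and Matplotlib 3.10.9. Sequences were read from RefSeq promoters of GRCm38.p6. Alternatives were another pseudocount, filter or scaling, no trend, covariates, the compared groups alone, and libraries left out.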

Additional observations from a re-analysis of the deposited data

How the results depend on the processing

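None of the 8 genes was called in any of the 6 contrasts in any of the 136 values of that number under the alternatives, and all 8 levels were the same with a tolerance 5 times wider in the restoring of decimal points (8 of 8). Numbers at an unadjusted p under 0.05 were less stable. At 5 months 4 became 1 with the neutrophil level as a covariate and 2 without E7, within 2 to 5 over libraries left out. Averaged over ages, 4 became 1 with that covariate and 1 without E7 and F5. For the difference between ages, 1 became 2 without E4, F18 or F5. With age in WT, 1 became 3 without E7 and F5, 2 without F10, and 2 with the compared groups alone. With age in KO, 1 became 0 with quantile normalization, the Xist level or the neutrophil level as a covariate, and without E7 and F5, E7, F19, F6 or F27. Why was not tested. No paired analysis was possible because the groups share no code or replicate number.

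Of 570 alternative values of single changes, 553 kept their direction and 17 crossed 0. They cover 25 of the 48 pairs of gene and contrast. All pairs for KO against WT at 5 and at 8 months were included. From the other contrasts only pairs with an unadjusted limma p under 0.05 or without overlap were kept. Most small changes of those contrasts were thus not counted, so the share that kept direction does not hold for all pairs. At 5 months these were Casp2 with the neutrophil covariate (-0.25) and Casp9 without F18 (-0.0897 to 0.0351 over libraries left out). At 8 months, where all changes were near 0, Casp2 crossed with the neutrophil covariate (-0.0497), without E7 and F5 (-0.10), and when libraries were left out (-0.10 to 0.13). Fas crossed with the neutrophil covariate (-0.00870), without E7 and F5 (-0.0485) and with libraries left out (-0.15 to 0.22). Tnfrsf10b crossed with the Xist covariate (-0.0177) and with libraries left out (-0.0918 to 0.0673). Birc3 crossed with the neutrophil covariate (-0.00964), without E7 and F5 (-0.0834) and with libraries left out (-0.0834 to 0.14). With 3 libraries a group and unknown depth, a true difference could go uncalled. The 95% intervals are per gene and before adjustment, so they do not mark the limit of detection. That of Tnfrsf10b at 5 months (0.18 to 0.56) lay above 0, and the gene was not called.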

Other observations

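Target genes of p53 and NF-kB, factors that act on Fas, Tnfrsf10b and Birc3, were read beside the 8 genes. Of 15 p53 targets 5 had an unadjusted limma p under 0.05 at 5 months, 3 with the higher and 2 with the lower level in KO. Their list had a median log2 change of 0.09, and none was called. For this list and the next, 8.23% of all genes were higher and 9.92% lower at that p and age. Bax, which opens the mitochondrial membrane, was at 42.1, 37.3 and 42.6 FPKM in WT and at 47.6, 46.8 and 47.3 FPKM in KO (0.22 ± 0.07). It was also higher without overlap at 8 months (0.17 ± 0.07, limma, adjusted p = 0.962), as were 4.1% of all genes. Zmat3 was lower at both ages, by -0.27 ± 0.07 and -0.17 ± 0.07.

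Of 14 NF-kB targets 8 were higher at 5 months at an unadjusted limma p under 0.05 and 0 lower, with a median of 0.26, and none was called. Nfkb2, a subunit of the factor, was at 7.69, 7.45 and 9.54 FPKM in WT and at 10.9, 10.3 and 10.8 FPKM in KO (0.36 ± 0.10, adjusted p = 0.174), and Bcl3 changed by 0.58 ± 0.18. At 8 months 0 passed an unadjusted 0.05, beside 2.21% of all genes higher and 2.97% lower, and the median was 0.06. Nfkbia and Vcam1 changed by 0.20 ± 0.12 and 0.31 ± 0.18, both higher without overlap, as 4.1% of all genes were at that age. Immune cells express many of these genes, and the part of the neutrophil and B cell RNA of the KO libraries in them was not tested.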
